A study of Mus musculus with 16 samples.

Results

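The enzymes that make and break down sphingomyelin, together with the enzyme that makes glucosylceramide, were followed at the RNA level in mouse mammary tumours treated with an immune checkpoint antibody, a Hedgehog pathway inhibitor, or both. The group holds 8 genes, chosen by symbol: Sgms1, Sgms2, Samd8, Smpd1, Smpd2, Smpd3, Smpd4 and Ugcg. All 8 had a row among the 55146 genes of the deposited table, and 7 of them reached at least 1 FPKM (fragments per kilobase of transcript, scaled to the mapped fragments of the library) in at least 4 libraries, as did 15105 genes in all. Smpd3 did not reach this level in any library and is given by its values and an exact test.

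The study compared 4 groups of 4 tumours each. The recipients got anti-PD-L1 (an antibody dosed 2 times weekly, 5 mg/kg), daily sonidegib (20 mg/kg), both agents (the combination) or vehicle, each over 28 days. Sonidegib inhibits Smoothened and thereby Hedgehog signalling, while PD-L1 is a ligand that restrains T cells. All tumours came from MMTV-PyMT donors, aged 12 weeks, in which a mammary tumour virus promoter drives the polyoma middle T antigen in mammary epithelium, and all grew in FVB hosts after transfer to a mammary fat pad. The labels number the tumours within a group and name no donor, litter, batch or day, so p-values here cover tumour-to-tumour spread within this set, which may be technical in part. The libraries are described as depleted of ribosomal RNA and stranded, while another label names polyadenylated RNA.

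Sphingomyelin is made from ceramide and phosphatidylcholine by sphingomyelin synthases, in the Golgi by the product of Sgms1 and mainly at the plasma membrane by that of Sgms2, which release diacylglycerol. Sphingomyelinases turn sphingomyelin back into ceramide, the acid enzyme (Smpd1) in lysosomes and the neutral enzymes (Smpd2, Smpd3 and Smpd4) elsewhere in the cell. The glucosylceramide synthase encoded by Ugcg draws on the same ceramide pool and starts the synthesis of most glycosphingolipids. The series' title names altered ceramide synthesis, and the balance of these enzymes bears on how much ceramide is free.

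The tumours were sequenced to an estimated 34.3 to 56.5 M fragments (M, mega) per library. Vehicle replicate 3 stood apart: 11361 of its genes reached 1 FPKM, against 13107 to 14784 in the other libraries, and its median log2 deviation from the gene medians was -0.764, against -0.129 to 0.149 elsewhere. No scaling was applied to the values, so this library lowers the vehicle mean of most genes, and the median gene was 0.30, 0.33 and 0.26 higher on the log2 scale in the anti-PD-L1, sonidegib and combination groups than with vehicle. Luminal and basal epithelial markers (8 of 8 found, none at 0 in a group) summed to 1104 to 1614 FPKM with anti-PD-L1, 1022 to 2207 with sonidegib, 978 to 2007 with the combination and 583 to 2445 with vehicle. T cell markers (7 of 7 found) summed to 18.2 to 23.1 FPKM in combination replicates 2 to 4 and 2.34 in combination replicate 1. These sums were 4.39 to 8.64 FPKM with anti-PD-L1 and 1.72 to 7.16 with sonidegib, against 1.37 to 3.61 with vehicle.

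Genomic sequence around an annotated start of 3 members is shown here because their levels moved together, or in opposition, across the tumours, as described further on. Each stretch is 300 bases of GRCm38.p6 from RefSeq, from 250 bases before to 50 bases after an annotated transcript start, written 5′ to 3′ on the strand of the gene: Ugcg at chr4:59189300-59189599 on the plus strand, Smpd1 at chr7:105554110-105554409 on the plus strand and Smpd2 at chr10:41490291-41490590 on the minus strand. Capitals mark GC boxes (GGGCGG) and the E-box TCACGTG that lysosomal gene regulators such as TFEB bind, on either strand; no GC box overlapped the E-box. The Ugcg stretch lies wholly within the GENCODE M21 interval of that gene, which begins at 59189257.

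Ugcg: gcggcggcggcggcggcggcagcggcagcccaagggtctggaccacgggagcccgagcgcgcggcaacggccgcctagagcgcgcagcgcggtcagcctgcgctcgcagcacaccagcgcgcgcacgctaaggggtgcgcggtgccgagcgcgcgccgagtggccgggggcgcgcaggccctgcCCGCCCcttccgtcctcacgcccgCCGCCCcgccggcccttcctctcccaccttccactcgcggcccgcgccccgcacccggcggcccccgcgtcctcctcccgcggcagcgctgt

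Smpd1: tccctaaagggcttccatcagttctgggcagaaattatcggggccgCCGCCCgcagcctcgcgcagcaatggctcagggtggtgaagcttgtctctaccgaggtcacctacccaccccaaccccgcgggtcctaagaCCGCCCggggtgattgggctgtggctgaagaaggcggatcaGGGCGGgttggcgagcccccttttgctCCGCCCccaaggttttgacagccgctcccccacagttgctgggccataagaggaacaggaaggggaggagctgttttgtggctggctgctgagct

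Smpd2: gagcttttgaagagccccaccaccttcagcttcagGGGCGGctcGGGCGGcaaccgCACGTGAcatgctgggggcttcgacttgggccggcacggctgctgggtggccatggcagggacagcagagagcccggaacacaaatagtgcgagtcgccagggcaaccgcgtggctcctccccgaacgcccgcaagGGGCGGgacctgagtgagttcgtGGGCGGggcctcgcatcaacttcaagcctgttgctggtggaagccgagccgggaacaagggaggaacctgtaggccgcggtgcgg

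Smpd1 and Smpd2 had 4 GC boxes each in this stretch and Ugcg had 2. A GC box stood in 35.7% of 32851 mouse promoter stretches of this length. The E-box stood in 3.77% of them and, among these 3 members, in Smpd2. RefSeq gave promoter stretches for 7 of the 8 members, 1 to 6 each, and the E-box appeared in 2 of those 16 stretches, the one of Smpd2 and 1 of 6 of Sgms2. A match is a run of letters, not a bound site.

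The sphingomyelinase genes and Sgms1 were the most abundant of the group, and Smpd3 was close to absent. Over all 16 libraries Smpd2 averaged 12.1 ± 1.83 FPKM (SD, n = 16), Sgms1 10.5 ± 3.42, Smpd1 10.4 ± 2.83, Smpd4 8.33 ± 1.56, Samd8 4.76 ± 0.918, Ugcg 3.99 ± 1.31, Sgms2 2.60 ± 1.20 and Smpd3 0.0569 ± 0.0235. FPKM is a level per transcript length, so these levels can be set beside each other, but only roughly. Trends over GC content differed between the libraries and the Sgms2 level is uncertain, as described further on. The top of this order is not resolved: Smpd2 exceeded Sgms1 in 10 of 16 libraries, and Sgms1 exceeded Smpd1 in 9. Smpd1 was above Smpd4 in 13 libraries, Samd8 above Ugcg in 13 and Ugcg above Sgms2 in 15, while Smpd4 was above Samd8, and Sgms2 above Smpd3, in all 16. The mean of Smpd2 lay above 68.5% of the tested genes, that of Ugcg above 36.9% and that of Sgms2 above 26.9%. Sgms2 varied most among the tested members, with a coefficient of variation of 46.2% over the libraries, against 15.1% for Smpd2. In the group means, Sgms1 ranked highest with the combination (rank 1 of 8), at rank 3 with anti-PD-L1, at rank 2 with sonidegib and at rank 4 with vehicle.

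**Figure D1:**
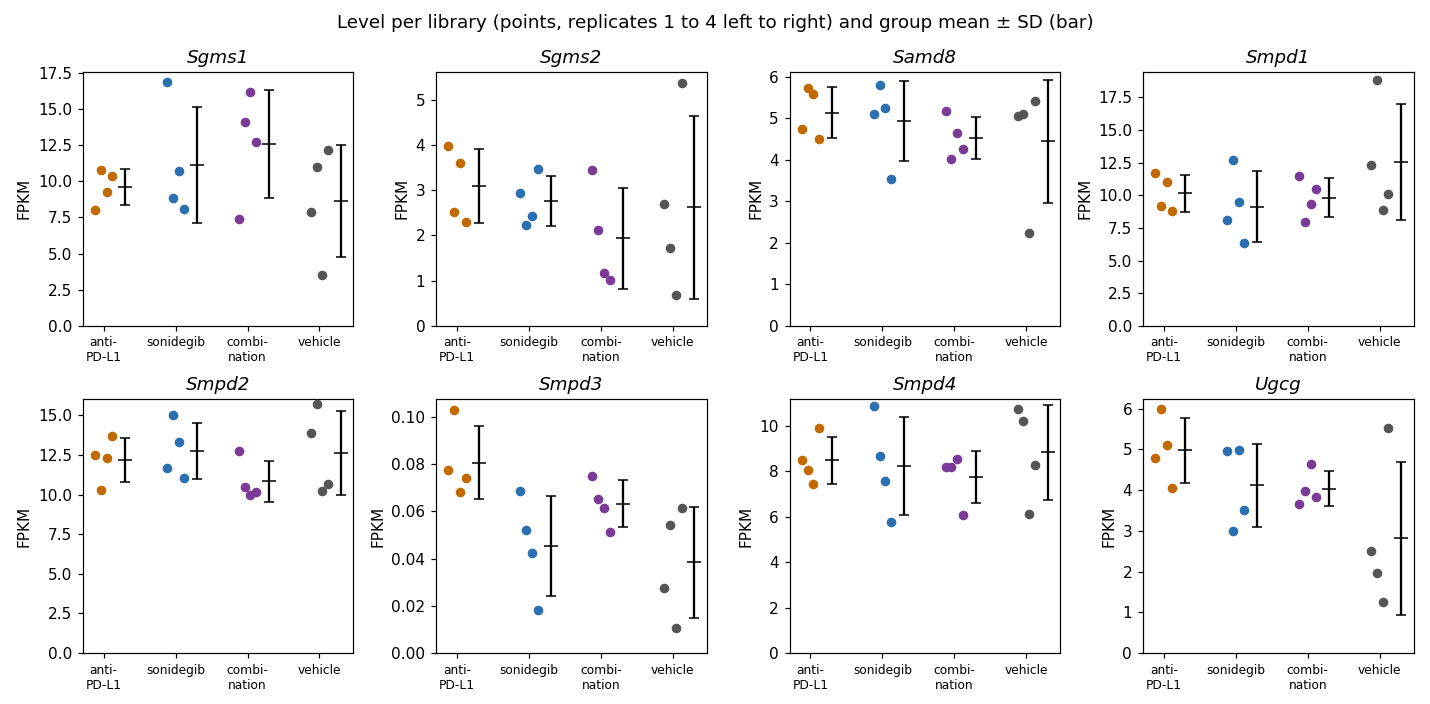
FPKM of each member in the 16 libraries by treatment group (points, replicates 1 to 4 from left to right), with the group mean ± SD (n = 4) beside them. For Ugcg, 3 of the 4 vehicle libraries sit at 1.26 to 2.51 FPKM, below every treated library, and vehicle replicate 4 sits at 5.52.

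No member passed the test in any comparison. Limma with Benjamini-Hochberg adjustment over 15105 genes called 0 of the 7 tested members across the 4 groups, where it called 0.0199% of all genes, and 0 of 7 between combination and vehicle, where it called 11.3%. The other comparisons called 0% of genes (anti-PD-L1 against vehicle, sonidegib against vehicle, combination against sonidegib and sonidegib against anti-PD-L1) or 0.00662% (combination against anti-PD-L1 and the interaction of the drugs), and 0 of 7 members in each. At an unadjusted p under 0.05 the 8 tests gave 1 member result, Ugcg between anti-PD-L1 and vehicle, whereas 3712 genes had such a p in that comparison and 5081 in the one between combination and vehicle. The groups of the 7 tested members overlapped in each of the 6 pairwise comparisons. Among all tested genes, every anti-PD-L1 library lay above every vehicle library for 3.39% and below for 0.477% (3.87% in either direction). Against vehicle these shares were 6% above and 0.265% below for sonidegib (6.27% in either direction), and 3.12% above and 1.27% below for the combination (4.39%). For the combination they were 1.36% above and 2.48% below against anti-PD-L1 (3.83%), and 0.483% above and 2.44% below against sonidegib (2.92%). Sonidegib libraries lay wholly above those of anti-PD-L1 for 2.24% of genes and wholly below for 0.51% (2.75%). In whole tumours, fewer cells of a type and less RNA per cell cannot be told apart. The intervals below show how large a difference remained possible.

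Ugcg, on chromosome 4 at 59189257 to 59222833 (GRCm38, plus strand), encodes the enzyme that adds glucose to ceramide, and it had the lowest p of the group. It was at 4.79, 5.98, 5.11 and 4.06 FPKM with anti-PD-L1, 4.97, 3.01, 4.98 and 3.51 with sonidegib, and 3.67, 3.99, 4.65 and 3.83 with the combination, against 2.51, 1.97, 1.26 and 5.52 with vehicle. In these unscaled values all 12 treated libraries lay above vehicle replicates 1 to 3, and 11 of them lay below vehicle replicate 4. After median-of-ratios scaling, sonidegib replicate 2 (2.67 FPKM) lay below vehicle replicate 3 (2.69 FPKM). On the log2(FPKM + 1) scale the difference from vehicle was 0.76 with anti-PD-L1 (SE 0.26, 95% interval 0.21 to 1.30, adjusted p = 0.158 by limma). With sonidegib it was 0.52 (SE 0.26, 95% interval -0.03 to 1.07, adjusted p = 0.199), and with the combination 0.51 (SE 0.26, 95% interval -0.04 to 1.06, adjusted p = 0.175). The 3 comparisons share the vehicle libraries. Without vehicle replicate 4 limma called Ugcg in each of them, at 1.05, 0.81 and 0.81 (adjusted p = 0.00691, 0.0145 and 0.01), and across the 4 groups (adjusted p = 0.0148); 26%, 26.3%, 32.8% and 22% of all genes were then called. Without the low vehicle replicate 3 the same differences were 0.54, 0.30 and 0.30 (adjusted p = 0.471, 0.523 and 0.419). After median-of-ratios scaling they were 0.47, 0.21 and 0.28 (adjusted p = 0.187, 0.485 and 0.276 by limma). With the trends over GC content and transcript length removed from each library they were 0.37 (95% interval -0.08 to 0.82), 0.17 and -0.00336 (adjusted p = 0.302, 0.608 and 0.994 by limma). The summed level of 7 mitochondrial transcripts, a sign of RNA quality, was likewise lower in vehicle replicates 1 to 3 than in every other library: it was 7699 to 30982 FPKM in the treated libraries, against 6217, 3083, 2364 and 14875 FPKM in vehicle replicates 1 to 4. Its part in the Ugcg differences was not tested. The treated groups lay closer to each other: combination minus sonidegib was -0.01 (95% interval -0.55 to 0.54) and combination minus anti-PD-L1 was -0.24 (95% interval -0.79 to 0.30). The interaction of the drugs was -0.76 (SE 0.37, adjusted p = 0.485 by limma).

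Of the sphingomyelin synthases, Sgms1 was highest with the combination and Sgms2 lowest, although neither difference passed the test. Sgms1, on chromosome 19 at 32122727 to 32389714 (minus strand), was at 8.04, 10.8, 9.25 and 10.4 FPKM with anti-PD-L1, 16.9, 8.87, 10.7 and 8.06 with sonidegib, and 7.37, 14.1, 16.2 and 12.7 with the combination, against 7.87, 11, 3.53 and 12.2 with vehicle. In these unscaled values combination replicates 2 to 4 exceeded all vehicle libraries, and combination replicate 1 lay within them. After median-of-ratios scaling, 2 combination libraries lay above all vehicle libraries and 1 lay below them all. The log2 difference between combination and vehicle was 0.56 (SE 0.32, 95% interval -0.11 to 1.22, adjusted p = 0.222 by limma). It was 0.77 without combination replicate 1 (adjusted p = 0.0779) and 0.23 without vehicle replicate 3 (adjusted p = 0.579). The sonidegib difference from vehicle was 0.39 (adjusted p = 0.406) and the anti-PD-L1 difference was 0.24 (adjusted p = 0.649). After median-of-ratios scaling the differences from vehicle were 0.25 with the combination, 0.00495 with sonidegib and -0.12 with anti-PD-L1. Their adjusted p was 0.399, 0.991 and 0.752 by limma.

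Sgms2 was at 3.98, 2.52, 3.59 and 2.29 FPKM with anti-PD-L1, 2.93, 2.24, 2.43 and 3.47 with sonidegib, and 3.44, 2.13, 1.16 and 1.02 with the combination, against 2.70, 1.72, 0.673 and 5.38 with vehicle. In these unscaled values combination replicates 2 to 4 lay below every library given 1 drug, but within the vehicle range. After median-of-ratios scaling, combination replicate 2 (2.01 FPKM) lay above sonidegib replicate 2 (1.98 FPKM). Scaled combination replicates 3 and 4 (1.09 and 0.969 FPKM) lay below the lowest vehicle library (1.44 FPKM). The log2 difference was -0.21 against vehicle (SE 0.33, 95% interval -0.89 to 0.48, adjusted p = 0.688 by limma), -0.53 against anti-PD-L1 (95% interval -1.22 to 0.15, adjusted p = 0.843) and -0.42 against sonidegib (95% interval -1.11 to 0.26, adjusted p = 0.959). Without vehicle replicate 4 the sign against vehicle turned, to 0.12. With median-of-ratios scaling the difference from vehicle was -0.38 (adjusted p = 0.323 by limma). The deposited row of this symbol carries the identifier ENSMUSG00000116143.1, which GENCODE release M21 does not list; that release places Sgms2 under another identifier on chromosome 3. The row was therefore matched by symbol only, 1 of 298 rows of this kind. How the counting shared reads between copies of the gene is not known, so its level is uncertain.

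Differences between 2 members within a library reduce a shift common to all genes of that library, but, with 1 added to each FPKM, do not cancel it for low genes such as Sgms2. Sgms1 exceeded Sgms2 in all 16 libraries. On the log2(FPKM + 1) scale this difference was 0.86, 1.74, 1.16 and 1.79 with anti-PD-L1, 2.19, 1.61, 1.77 and 1.02 with sonidegib, and 0.92, 2.27, 2.99 and 2.76 with the combination, against 1.26, 2.14, 1.44 and 1.05 with vehicle. Combination replicates 2 to 4 held the 3 highest values of the 16, and combination replicate 1 was lower. That library also stood apart from combination replicates 2 to 4 in other measures. Its T cell markers summed to 2.34 FPKM against 18.2 to 23.1, its epithelial markers to 2007 against 978 to 1082, and its adipocyte markers (5 of 5 found, none at 0 in a group) to 45.7 against at most 7.57. Its GC slope, defined further on, was 0.22 against -0.40 to -0.30. The part of cell composition and of the GC slope in this difference was not tested. Smpd1 minus Sgms1 was positive in 3 of 4 vehicle libraries (0.59, 0.73, 1.13 and -0.24) and negative in 3 of 4 sonidegib libraries (-0.98, 0.47, -0.16 and -0.31) and 3 of 4 combination libraries (0.58, -0.75, -0.73 and -0.25). With anti-PD-L1 it was 0.49, -0.21, 0.23 and -0.22. The groups overlapped.

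**Figure D2:**
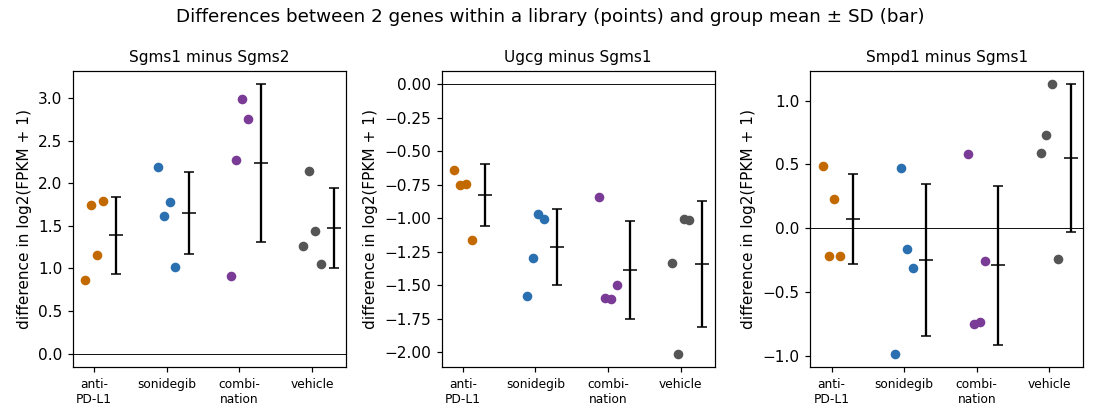
Differences in log2(FPKM + 1) between 2 genes of the same library, by group (points, replicates 1 to 4 from left to right), with the group mean ± SD (n = 4). Sgms1 minus Sgms2 reaches 2.27 to 2.99 in combination replicates 2 to 4, above all other libraries, and 0.92 in combination replicate 1.

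Ugcg stood below Sgms1 in every library. The difference Ugcg minus Sgms1 averaged -0.83 ± 0.23 in anti-PD-L1 tumours, -1.22 ± 0.29 in sonidegib tumours and -1.39 ± 0.37 in combination tumours, against -1.34 ± 0.47 with vehicle (SD, n = 4 each). The anti-PD-L1 group had the highest mean, and its range overlapped those of the other groups.

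Samd8 encodes the relative of the sphingomyelin synthases that makes small amounts of ceramide phosphoethanolamine in the endoplasmic reticulum. It lies on chromosome 14 at 21750531 to 21798726 (plus strand) and was at 4.50 to 5.73 FPKM with anti-PD-L1, 3.55 to 5.81 with sonidegib and 4.01 to 5.18 with the combination, against 2.23 to 5.42 with vehicle, where the lowest value was that of replicate 3. Its log2 differences from vehicle were 0.22, 0.16 and 0.07 in the anti-PD-L1, sonidegib and combination groups (SE 0.22 each, adjusted p = 0.553, 0.646 and 0.858 by limma). After median-of-ratios scaling they were -0.11, -0.19 and -0.21.

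**Figure D3:**
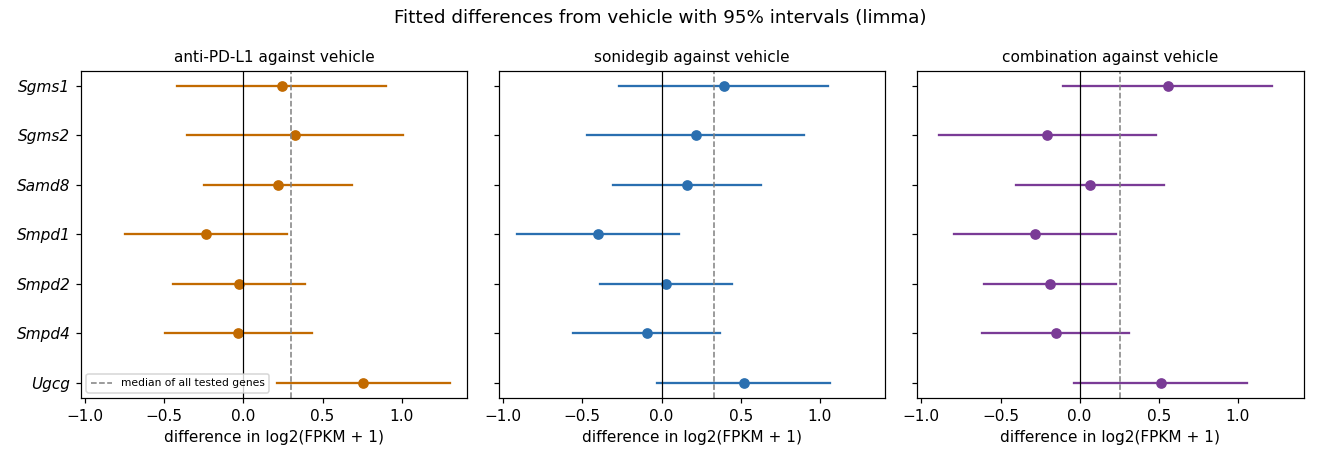
Fitted differences in log2(FPKM + 1) of the 7 tested members from vehicle, with 95% intervals from limma, 1 panel per treatment; the dashed line is the median difference of all 15105 tested genes. Among these unscaled differences 1 interval excludes 0, that of Ugcg with anti-PD-L1 (0.21 to 1.30). With the GC and length trends removed that interval is -0.08 to 0.82, and none excludes 0. After median-of-ratios scaling it is 0.07 to 0.87. There the intervals of Smpd1 and Smpd4 with each treatment, and of Smpd2 with the combination, lie below 0, without a call.

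The acid sphingomyelinase gene Smpd1, on chromosome 7 at 105554360 to 105558389 (plus strand), was on average lower with each treatment, without passing the test. It was at 11.7, 9.15, 11.1 and 8.77 FPKM with anti-PD-L1, 8.09, 12.7, 9.48 and 6.33 with sonidegib, and 11.5, 7.97, 9.32 and 10.5 with the combination, against 12.3, 18.8, 8.90 and 10.1 with vehicle. Vehicle replicate 2 was the highest library, and the groups overlapped. The log2 differences from vehicle were -0.24, -0.40 and -0.28 (SE 0.24 each, adjusted p = 0.558, 0.273 and 0.431 by limma). Scaling by median of ratios moved them to -0.62, -0.81 and -0.61 (adjusted p = 0.181, 0.142 and 0.0682). It raised the vehicle mean from 12.6 to 15.6 FPKM, with vehicle replicate 3 going from 8.90 to 19.1 FPKM. The anti-PD-L1, sonidegib and combination means fell from 10.2, 9.14 and 9.82 to 9.39, 8.21 and 9.50 FPKM. With the trends over GC content and transcript length removed from each library the log2 differences were 0.03, -0.14 and 0.11.

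Smpd2, on chromosome 10 at 41485642 to 41490369 (minus strand), encodes a neutral sphingomyelinase, and part of it overlaps Mical1 on the other strand. It was at 12.5, 10.3, 12.3 and 13.7 FPKM with anti-PD-L1, 11.7, 15, 13.3 and 11 with sonidegib, and 12.8, 10.5, 9.97 and 10.2 with the combination, against 13.9, 15.7, 10.2 and 10.6 with vehicle. Relative to its mean it varied least of the members, and its log2 differences from vehicle were -0.03, 0.03 and -0.19 (SE 0.20 each, adjusted p = 0.934, 0.942 and 0.534 by limma). Smpd4, on chromosome 16 at 17619354 to 17644828 (plus strand), encodes a further neutral sphingomyelinase of the endoplasmic reticulum and nuclear envelope. It ranged over 7.47 to 9.92 FPKM with anti-PD-L1, 5.76 to 10.9 with sonidegib and 6.07 to 8.56 with the combination, against 6.14 to 10.7 with vehicle. Its log2 differences from vehicle were -0.03, -0.09 and -0.15 (SE 0.22 each, adjusted p = 0.937, 0.791 and 0.658 by limma). After median-of-ratios scaling, the Smpd2 differences were -0.42, -0.39 and -0.52 (adjusted p = 0.22, 0.256 and 0.0757 by limma). Those of Smpd4 were -0.41, -0.50 and -0.47 (adjusted p = 0.2, 0.154 and 0.0694 by limma). With the trends over GC content and transcript length removed, they were 0.15, 0.15 and 0.04 for Smpd2 and 0.09, 0.02 and 0.04 for Smpd4.

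Smpd3, on chromosome 8 at 106252548 to 106337988 (minus strand), encodes the neutral sphingomyelinase best known for its part in the release of exosomes. It was at 0.0773, 0.103, 0.0680 and 0.0742 FPKM with anti-PD-L1, 0.0687, 0.0521, 0.0423 and 0.0182 with sonidegib, and 0.0751, 0.0651, 0.0614 and 0.0511 with the combination, against 0.0275, 0.0542, 0.0105 and 0.0612 with vehicle. Such values correspond to roughly 1.79 to 27.6 fragments per library on its longest transcript, by the approximate depths. Smpd3 lies within Gm26786 (106237903 to 106425728), a long noncoding RNA gene of the same strand without a row in the deposited values. One end of it overlaps Prmt7 on the other strand (mean 6.73 FPKM). Whether these few fragments came from Smpd3 was not tested. All anti-PD-L1 libraries lay above all vehicle libraries (mean difference 0.0422 FPKM, exact two-sided permutation p = 0.0286, the smallest possible with 4 against 4 libraries, and 0.171 after Benjamini-Hochberg adjustment over the 6 comparisons). Among all tested genes, 3.39% were separated in this direction. Against vehicle, the sonidegib libraries overlapped (exact permutation p = 0.714) and so did the combination libraries (exact permutation p = 0.114).

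Of the 21 pairs of tested members, 3 were correlated across the tumours by both measures used, Smpd1 with Smpd2, Smpd2 with Ugcg and Samd8 with Smpd1. How often pairs of other genes reach such correlations in these libraries was not counted. The count is therefore not a result particular to these members. After the median deviation of each library was taken out, Smpd1 and Smpd2 moved together over the 16 libraries (Pearson's r = 0.801, permutation p = 0.00011, adjusted 0.00231 over 21 pairs; Spearman's rho = 0.665, permutation p = 0.00646, adjusted 0.0452). Ugcg ran opposite to Smpd2 (Pearson's r = -0.765, permutation p = 0.00055, adjusted 0.00578; Spearman's rho = -0.688, permutation p = 0.00402, adjusted 0.0443). Without the 2 libraries farthest from the median of the first gene, r was 0.591 for Smpd1 with Smpd2 and -0.606 for Smpd2 with Ugcg. Within groups, with each value taken as its deviation from the group mean, r was 0.781 and -0.769. Samd8 and Smpd1 also passed by both measures (Pearson's r = 0.625, permutation p = 0.00852, adjusted 0.0358; Spearman's rho = 0.691, permutation p = 0.00422, adjusted 0.0443), with r = 0.411 without the 2 farthest libraries and 0.552 within groups. Sgms1 and Sgms2 had r = -0.427 (permutation p = 0.0991, adjusted 0.202) and rho = -0.309 (permutation p = 0.243, adjusted 0.393).

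A measure of library composition moved with several members. The GC slope is the slope of a library's log2 deviations over the GC content of all tested genes, per 10 percentage points. By this definition GC-rich genes tend to rise with it and GC-poor genes to fall. How many other genes follow it as closely was not counted, so the correlations below are not a result particular to these members. It was -0.21 to 0.03 with anti-PD-L1, -0.23 to 0.29 with sonidegib and -0.40 to 0.22 with the combination, against -0.06 to 0.48 with vehicle. Smpd2, whose transcripts have a median GC content of 54.6%, followed it most closely (Pearson's r = 0.898, permutation p = 1e-05, the lowest value reachable with 100000 permutations, adjusted 7e-05 over 7 members; Spearman's rho = 0.876, permutation p = 4e-05, adjusted 0.00028; r = 0.881 without the 2 most extreme libraries). Ugcg, at 43.5% GC, ran against it (Pearson's r = -0.696, permutation p = 0.00276, adjusted 0.00644; Spearman's rho = -0.568, permutation p = 0.0246, adjusted 0.0344; r = -0.580 without those libraries). Smpd1 (55.2% GC) had r = 0.708 (permutation p = 0.00169, adjusted 0.00592) and Sgms1 (47.9% GC) r = -0.606 (permutation p = 0.0137, adjusted 0.0192), with rho = 0.662 and -0.653 (permutation p = 0.0065 and 0.00745, both adjusted 0.0174) and r = 0.627 and -0.501 without those libraries. Samd8, at 46.9% GC, went with the GC slope although its GC content is low (r = 0.561, permutation p = 0.0241, adjusted 0.0281). Its rho was 0.615 (permutation p = 0.0129, adjusted 0.0226), and its r was 0.619 without those libraries. Smpd4 (52.4% GC) passed by r alone, at 0.652 (permutation p = 0.00628, adjusted 0.011). Its rho was 0.515 (permutation p = 0.044, adjusted 0.0513), and its r was 0.445 without those libraries. Sgms2 passed by neither measure (r = 0.268, permutation p = 0.315, and rho = 0.215, permutation p = 0.421). The part of library composition in the opposed levels of Ugcg and Smpd2 was not tested. Their correlation was not computed again on values corrected for GC content.

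**Figure D4:**
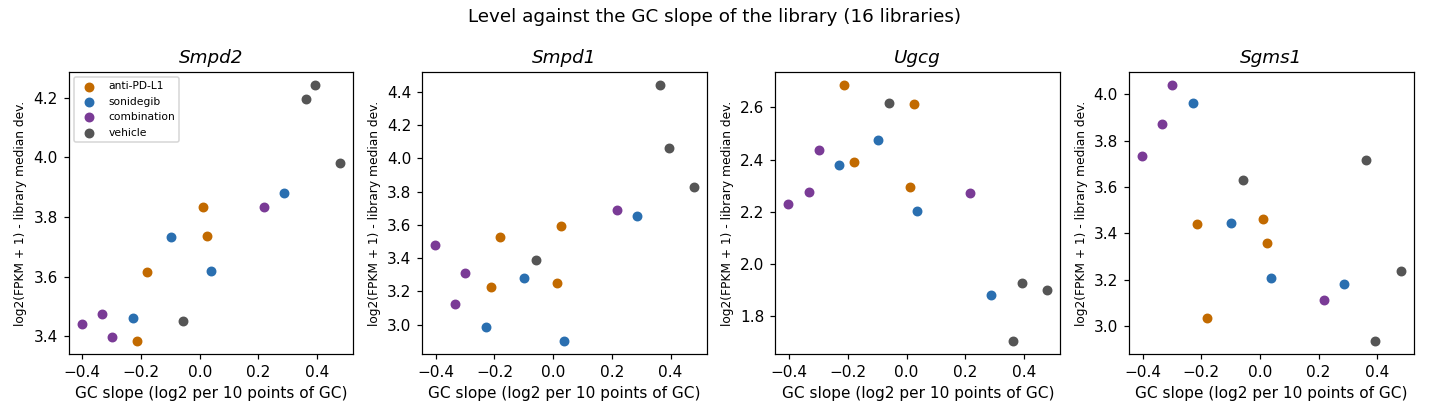
Level of 4 members, as log2(FPKM + 1) minus the median deviation of the library, against the GC slope of the library (log2 units per 10 percentage points of GC), 1 point per library, coloured by group. Smpd2 climbs with the slope (r = 0.898) and Ugcg declines (r = -0.696), with vehicle replicates 1 to 3 at the high end, at 0.36 to 0.48.

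Among all tested genes, those whose pattern over the 16 libraries was most like that of Smpd1 were Sdc3, Scamp2 and Pgghg (r = 0.971, 0.958 and 0.952), and those most like Smpd2 were Wdr81, Gm44264 and Plekhg6 (r = 0.958, 0.958 and 0.953). Kbtbd2, Ptpn12 and Tma16 were most like Ugcg (r = 0.919, 0.916 and 0.910). Arid2, Myo5c and Taf2 were most like Sgms1 (r = 0.865, 0.860 and 0.842), and Lad1, Tuft1 and P4hb most like Sgms2 (r = 0.885, 0.871 and 0.869). Sik3, Matn2 and Gak were most like Samd8 (r = 0.906, 0.895 and 0.887), and Plekhm2, Gmeb2 and Arhgef4 most like Smpd4 (r = 0.940, 0.916 and 0.902). The genes nearest to Ugcg had 44.3 to 44.9% GC, those nearest to Sgms1 43.5 to 48.2%, and those nearest to Samd8 50.5 to 53.7%. For Sgms2 the range was 52.7 to 57.7%, for Smpd4 53.6 to 58.5%, for Smpd1 55.0 to 61.0% and for Smpd2 59.0 to 60.9%. Samd8 and Sgms2 themselves have 46.9 and 47.7% GC. These are the highest correlations among the 15105 tested genes and only describe the libraries. Depth and GC slope differed between the libraries, and their part in these likenesses was not tested.

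The wider pathway was described with 31 further genes of sphingomyelin and glycosphingolipid metabolism, of which 25 were tested. Between combination and vehicle 1 of the 25 rose and 0 fell, where 11.3% of all genes were called, with a median log2 difference of 0.05 against 0.26 over all tested genes. In each of the other 7 comparisons limma called 0 of 25. The medians against vehicle were 0.0017 with anti-PD-L1 and 0.06 with sonidegib, where those of all genes were 0.30 and 0.33. The 8 tested genes of lysosomal breakdown had a median of -0.03 between combination and vehicle with 0 calls, among them Psap, the precursor of the saposin activators, at 366 ± 54.9 FPKM with the combination and 409 ± 133 with vehicle (SD, n = 4 each). The 6 tested genes of complex glycosphingolipid synthesis had a median of -0.14, and the 6 of glucosylceramide and galactosylceramide metabolism one of 0.04, both with 0 calls.

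The gene that rose was Smpdl3a, which encodes a relative of acid sphingomyelinase that is known to act on nucleotides and is listed here for its family, not for sphingomyelin turnover. It was at 11.9, 36.8, 28.1 and 52.3 FPKM with the combination, against 11.4, 16.2, 6.55 and 12.7 with vehicle (log2 difference 1.28, SE 0.36, adjusted p = 0.0382 by limma). Combination replicates 2 to 4 lay above all vehicle libraries and combination replicate 1 within them. With anti-PD-L1 and sonidegib it averaged 17.0 ± 4.77 and 21.1 ± 5.29 FPKM, against 11.7 ± 4.01 with vehicle (SD, n = 4 each), without a call. The call was lost without vehicle replicate 1, 2 or 3 (adjusted p = 0.065, 0.0802 and 0.122), without combination replicate 2, 3 or 4 (0.145, 0.0674 and 0.15), without the filter on low values (0.122) and with the GC and length trends removed (0.078, or 0.0808 with the replicate block); over all settings the adjusted p ranged over 0.0019 to 0.15. Macrophage markers (8 of 8 found, none at 0 in a group) summed to 221 to 346 FPKM with the combination and 165 to 224 with vehicle, and their part in this rise was not tested.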

How the data were processed

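The deposited values are FPKM, 1 column per library for 16 libraries. Per the submitters' processing notes, TopHat and Cufflinks were used with GRCm38.p6 and mm10; no version or annotation release is stated. Columns were matched to libraries by the S number in the descriptions, and these numbers run through the groups in turn, so library order and treatment cannot be told apart. Of the identifiers, 54468 of 55146 matched GENCODE M21 without their version, which gave positions, GC content and lengths.

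Whole fragment counts could not be recovered: with depth estimated from the FPKM step of 1 fragment in genes with a single transcript over 2 kb, 12.5 to 15.7% of low values lay within 0.05 of a whole number, where 10% would by chance. Depths are therefore approximate.

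Tests covered genes that reached 1 FPKM in 4 or more libraries, on log2(FPKM + 1), a scale that understates changes of low genes. Limma 3.58.1 (R 4.3.3) fitted the 4 group means jointly, with trend and robust options set; tests were two-sided, adjusted by Benjamini-Hochberg within each comparison, threshold 0.05. The fit was tested on simulated data. Smpd3 was compared by exact permutation of the mean FPKM.

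The members and the lists were chosen with earlier results of these data known. The rule for named genes gives all 8 members, the pathway genes past the threshold, the first examples of each role, and the 3 genes most like each member. Other settings were another pseudocount, no filter, 2 scalings, trends over GC content and length removed (natural splines), the replicate number as a block, and each library left out. Same-numbered libraries did not deviate together, so the numbers were not taken as pairs. One planned within-library difference is not reported here.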

Additional observations from a re-analysis of the deposited data

Results flagged for a closer look

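Of 32 sets of 4 libraries (8 members in 4 groups), 2 held a library far from the other 3; chance alone sets apart about 1 in 20 such sets. Samd8 was at 2.23 FPKM in vehicle replicate 3, against 5.05 to 5.42 in the other vehicle libraries. That library had low values for most genes (median log2 deviation -0.764), and its Samd8 value after median-of-ratios scaling was 4.79 FPKM, against 4.94 to 5.64 in the other vehicle libraries. Smpd4 was at 6.07 FPKM in combination replicate 4, against 8.20 to 8.56 in the other combination libraries. The median log2 deviation of combination replicate 4 was 0.0037, and its scaled Smpd4 value was 5.75 FPKM, against 7.76 to 8.41.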

How the results depend on the processing

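The number of members called was 0 in all 8 comparisons and in 180 of 184 repeats under other settings. It ranged from 0 to 1 when single libraries were left out, across the 4 groups and for each treatment against vehicle; the 1 was Ugcg without vehicle replicate 4 each time. Between combination and vehicle, the log2 difference of Samd8 turned negative with median-of-ratios scaling (-0.21), quantile normalization (-0.25), the GC and length trends removed (-0.17) and without vehicle replicate 3 (-0.17); leaving out single libraries gave -0.17 to 0.16. With the trends removed, Smpd1 (0.11), Smpd2 (0.0418), Smpd4 (0.0351) and Ugcg (-0.00336) turned sign as well, and Sgms2 did without vehicle replicate 4 (0.12; range over libraries left out -0.52 to 0.12). None of these differences was called. The cause was not tested.

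With the replicate block the fit called 0 members in each comparison, also with the trends removed, where the differences of Samd8 (-0.17), Smpd1 (0.11), Smpd2 (0.0418), Smpd4 (0.0351) and Ugcg (-0.00336) were the same. Same-numbered libraries of different groups had correlations of -0.434 to 0.343, 4 of 24 over 0.1, and 0 of 16 libraries correlated best with their own number. Over all genes, the calls between combination and vehicle numbered 1703 (1559 higher), 8 without the filter, 2772 (1539 higher) after median-of-ratios scaling, 2634 (1326 higher) after quantile normalization, 391 with the trends removed, 1177 with the replicate block, 617 with both, and 3 to 4947 with single libraries left out; the last was without vehicle replicate 4. The low level of Smpd3 limits its comparisons, at roughly 1.79 to 27.6 fragments per library, an estimate that rests on the approximate depths.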
